A study of Solanum lycopersicum with 32 samples.

Results

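Tomato stems carrying 35S:GinFT, a construct named for FT of Ginkgo and for the viral 35S promoter, were set against wild type (WT) stems. The members are the 2 libraries labelled 35S:GinFT, which are all that the Ginkgo experiment holds, and the 2 WT libraries of the FUL experiment, 4 of the 32 stem libraries of the series. The Ginkgo experiment has no wild type of its own, so the construct and anything that differed between the 2 experiments cannot be told apart in any value below. The other groups of the FUL experiment, 35S:SFT (the tomato florigen gene SFT) and 35S:TFUL2 (a FRUITFULL-type gene by its name), 2 libraries each, entered the same model. They show where 35S:GinFT stems stood apart from transgenic stems as well as from WT. The labels give no cultivar, no number of transgenic lines and no age for any group. The 35S promoter is active in most plant tissues, so the construct is not limited to the leaf veins where florigen is normally made.

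FT proteins are the florigen of flowering plants: small proteins made in leaves that move through the phloem and act in the shoot tip with 14-3-3 proteins and the bZIP factor FD. In tomato the florigen is encoded by SFT, its antagonist by SELF-PRUNING (SP), and FRUITFULL-type MADS genes are among the genes that florigen switches on. Ginkgo is a gymnosperm and makes no flowers. Beyond flowering, florigen has been studied in tomato for its effects on leaves and stems, where walls thicken and growth stops as organs mature.

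The 35S:GinFT libraries held 23564330 and 23145504 counted reads, against 22570322 and 29561853 in the WT libraries. In these 4 libraries 3 reads, the limit that a count of 0 allows, came to between 0.101 and 0.133 CPM (read counts scaled to the size of the library), counting error only. Replicates were separate libraries, but no label says that they came from separate plants, so the p-values may measure a technical spread. The table has no line for the Ginkgo gene, and the transgene was therefore not checked. SFT had 1 and 0 reads in 35S:GinFT stems and 0 and 0 reads in WT stems, while 35S:SFT stems had 1650 and 1719. Its absence was not shared by other wild types of the same table. WT of the overexpression experiment had 114 and 74 reads of SFT and WT//WT grafts 58 and 48, and 35S:TFUL2 stems had 43 and 39. The KNOX homeobox gene Tkn1, well known from stems and meristems, had 232 and 213 CPM in 35S:GinFT and 212 and 229 CPM in WT. The meristem genes WUS and CLV3 had too few reads to be tested, so these genes gave no sign of shoot tip tissue.

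The files do not pair their gene identifiers with names. Names below come from published knowledge of tomato genes. Of 123 identifier and name pairs, 107 were used because the named gene lies on the same chromosome, and in the same order along it, in the RefSeq annotation (assembly SLM_r2.1). Of these 107 genes, 91 had enough reads to be tested. All lists were chosen with results of these data known, and 67 of the names were added after leading genes had been seen, so their counts are descriptions.

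The 35S:GinFT stems lay at one end of the expression space of these experiments, with WT next to them. The first principal component of the 8 libraries, 47.3% of the variance, placed 35S:GinFT at -78.9 and -62.6, 35S:SFT at 22.6 and 24.6, 35S:TFUL2 at 69.1 and 67.8, and WT at -11.4 and -31.3. Both 35S:GinFT libraries thus lay beyond WT on the side away from 35S:SFT and 35S:TFUL2. The root mean square log2 difference over genes was 0.604 to 0.759 between a 35S:GinFT and a WT library. It was 0.489 within the 35S:GinFT pair and 0.562 within the WT pair, so the distance between groups was only a little above that within WT. From 35S:GinFT to 35S:SFT it was 0.855 to 0.936, and to 35S:TFUL2 0.961 to 1.07.

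**Figure D1:**
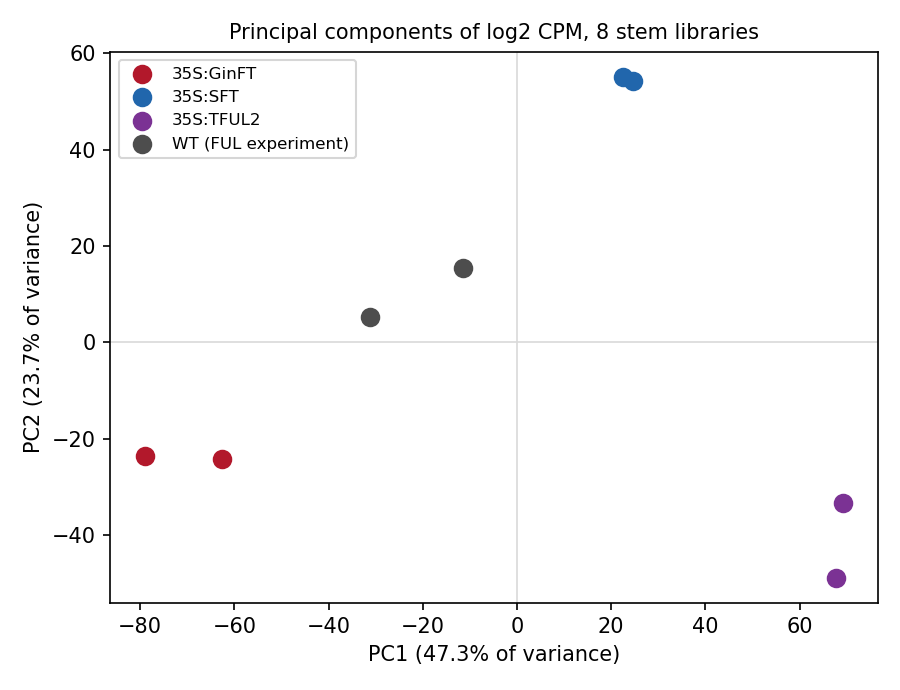
Principal components of log2 CPM over the 8 stem libraries of the Ginkgo and FUL experiments, one point per library; the x axis is PC1 (47.3% of the variance) and the y axis PC2 (23.7%). The 35S:GinFT points lie furthest left, at -78.9 and -62.6 on PC1, with WT (-11.4 and -31.3) between them and the 35S:SFT and 35S:TFUL2 points.

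Against WT, 1338 of 21458 genes tested changed in 35S:GinFT stems (6.24%; edgeR quasi-likelihood test, adjusted p under 0.05). Of these, 547 were higher (2.55% of genes tested) and 791 lower (3.69%) in 35S:GinFT. Most changes were moderate: the median size among called genes was 0.93 on the log2 scale, and 263 of the higher and 357 of the lower genes differed 2-fold or more. At an unadjusted p under 0.05 there were 5510 genes. Neither group's values overlapped the other's in any of the 1338 called genes, which was also true of 53.9% of all genes tested. The count depended on which library was left out. It fell without either 35S:GinFT library, most without replicate 1, and without WT replicate 1, and it rose without WT replicate 2. Among the 91 named genes tested, 5 were higher and 11 lower in 35S:GinFT.

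**Figure D2:**
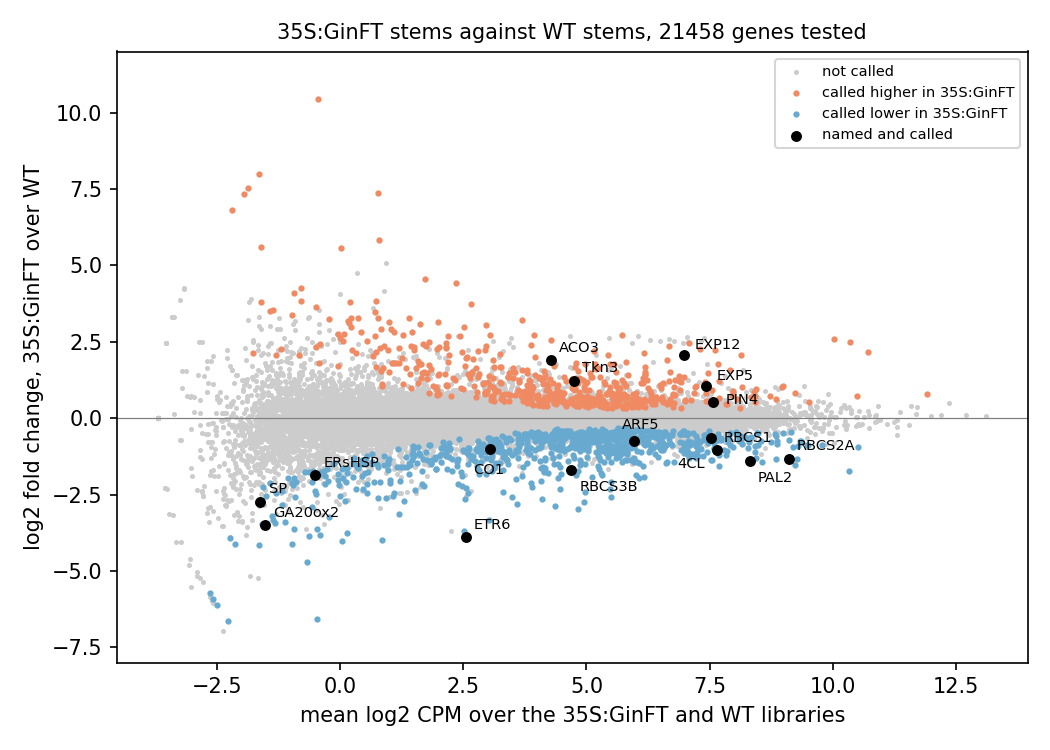
Log2 fold change of 35S:GinFT over WT (y axis) against the mean log2 CPM of the 4 libraries (x axis), one point per gene tested. Orange points are the 547 genes called higher in 35S:GinFT, blue points the 791 called lower, grey points were not called, and black points are the 16 named genes that were called.

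Of the florigen family itself, only SP passed the test against WT among the 4 members with enough reads (3.69% of all genes tested were called lower). SP (Solyc06g074350), the florigen antagonist, had 1 and 3 reads (0.044 and 0.131 CPM) in 35S:GinFT stems, against 11 and 21 reads (0.497 and 0.704 CPM) in WT stems. Its log2 fold change was -2.73 (SE 0.56, adjusted p = 0.0382), but the call was lost whichever of the 4 libraries was left out. The other wild types of the same table also had few reads of SP, with 0 and 2 in WT of the overexpression experiment and 1 and 0 in WT//WT grafts. Within the FUL experiment 35S:SFT stems had 11 and 10 reads and 35S:TFUL2 stems 5 and 7. SP was called lower in 35S:GinFT than in 35S:SFT (log2 fold change -2.08, SE 0.59, adjusted p = 0.0353). It was not called against 35S:TFUL2 (adjusted p = 0.152). SP9D had 1.05 and 0.566 CPM in 35S:GinFT and 0.181 and 0.268 CPM in WT, and SP2I had 0.483 and 0.609 CPM against 0.769 and 3.15 CPM. Neither was called. SP5G and SP6A were not tested for want of reads.

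The FRUITFULL-type genes, which florigen induces, were not called in 35S:GinFT stems against WT of the FUL experiment, and 3 of 4 could be tested. FUL1 (Solyc06g069430) had 10.6 and 10.4 CPM in 35S:GinFT and 12.2 and 10.9 CPM in WT, a log2 fold change of -0.13 (SE 0.12). FUL2 (Solyc03g114830) had 5.53 and 6.57 CPM in 35S:GinFT and 2.35 and 4.53 CPM in WT, 0.79 on the log2 scale (SE 0.29, adjusted p = 0.150). MBP10 had 7 and 22 reads against 0 and 7. The other wild types had lower values. On a scale common to the 24 libraries FUL1 had 9.65 to 9.77 CPM in 35S:GinFT and 10.3 to 11.7 CPM in WT of the FUL experiment. It had 3.69 to 3.93 CPM in WT of the overexpression experiment and 1.51 to 1.53 CPM in WT//WT grafts. FUL2 had 5.02 to 6.15 CPM in 35S:GinFT, above each wild type (2.26 to 4.27, 1.67 to 1.82 and 2.11 to 2.80 CPM, in the same order). Set against 35S:SFT directly, FUL1 was lower in 35S:GinFT (41.4 and 46.1 CPM in 35S:SFT; log2 fold change -2.05, SE 0.12, adjusted p = 0.000391), and so was FUL2 (32.1 and 34.6 CPM in 35S:SFT; -2.46, SE 0.27, adjusted p = 0.00174). The 35S:GinFT and 35S:SFT stems differed in both genes beyond the spread of the libraries. The constructs and the experiments they came from cannot be told apart here. None of 4 other MADS genes tested was called against WT, and the inflorescence gene ANANTHA had 1.10 and 0.479 CPM in 35S:GinFT against 1.04 and 0.537 CPM in WT.

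Of 4 genes of the phenylpropanoid pathway, which supplies lignin to woody walls, 2 were called, both lower in 35S:GinFT stems (3.69% of all genes tested were called lower). PAL2 (Solyc05g056170), a phenylalanine ammonia-lyase that catalyses the first step, had 181 and 210 CPM in 35S:GinFT stems, against 500 and 532 CPM in WT stems. Both 35S:GinFT libraries lay far below every library of the FUL experiment, where 35S:SFT had 566 and 619 CPM and 35S:TFUL2 727 and 708 CPM. The log2 fold change against WT was -1.40 (SE 0.11, adjusted p = 0.00211), and the call held whichever of the 4 libraries was left out. 4CL (Solyc03g117870), which activates cinnamic acids for lignin and flavonoids, had 125 and 157 CPM in 35S:GinFT and 246 and 328 CPM in WT (log2 fold change -1.03, SE 0.17, adjusted p = 0.0199). The 4CL call was lost without 35S:GinFT replicate 1 (adjusted p = 0.107). PAL5, another phenylalanine ammonia-lyase, had 25.6 and 43.4 CPM in 35S:GinFT and 21.9 and 40.5 CPM in WT, so the groups overlapped, and it was not called (0.14, SE 0.38, adjusted p = 0.852). CCR1, the first enzyme committed to lignin, was not called either: it had 118 and 132 CPM in 35S:GinFT and 137 and 155 CPM in WT. Against WT of the overexpression experiment, with 233 to 250 CPM beside 165 to 197 CPM in 35S:GinFT on a scale common to the 24 libraries, PAL2 was not called (adjusted p = 0.167). PAL2 belongs to a family of similar genes, so reads shared between copies may have been split.

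Of 5 expansins, proteins that loosen the growing cell wall, 2 were called, both higher in 35S:GinFT than in this WT (2.55% of all genes tested were called higher). The list median, which is the value of EXP5 itself, was 1.04 on the log2 scale against 0.01 over all genes. EXP12 (Solyc05g007830) had 335 and 194 CPM in 35S:GinFT and 63.5 and 62.5 CPM in WT. Its log2 fold change was 2.07 (SE 0.27, adjusted p = 0.0107), and the call held whichever library was left out. EXP5 (Solyc02g088100) had 265 and 230 CPM in 35S:GinFT and 139 and 102 CPM in WT (1.04, SE 0.23, adjusted p = 0.0449), a call lost whichever of the 4 libraries was left out. EXP2 had 167 and 152 CPM against 61.2 and 28.2 CPM and was not called (adjusted p = 0.0859). EXP1 had 48.2 and 65.2 CPM in 35S:GinFT and 71.9 and 69.5 CPM in WT, EXP18 had 78.3 and 84.9 CPM against 89.6 and 81.9 CPM, and neither was called. The other wild types of the table did not share the low values of this WT. On a scale common to the 24 libraries EXP12 had 181 to 304 CPM in 35S:GinFT, 58.9 to 61.1 CPM in WT of the FUL experiment, 178 to 236 CPM in WT of the overexpression experiment and 255 to 273 CPM in WT//WT grafts. EXP5 had 215 to 241 CPM in 35S:GinFT, 373 to 377 CPM in WT of the overexpression experiment and 246 to 315 CPM in WT//WT grafts, so its direction turned against both.

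Of 13 ethylene genes tested, 1 was higher and 1 lower (2.55% and 3.69% of all genes tested were). The list median was -0.015 on the log2 scale. ETR6 (Solyc09g089610), an ethylene receptor, had 1.36 and 1.61 CPM in 35S:GinFT stems, against 25.7 and 18.6 CPM in WT stems. This was the largest fall among called genes with a mean of 2 or more on the log2 CPM scale whose groups did not overlap: log2 fold change -3.89 (SE 0.49, adjusted p = 0.00995). The call was lost without 35S:GinFT replicate 1 (adjusted p = 0.0863) and without replicate 2 (0.0545). It was 10.3 CPM or more in each 35S:SFT and 35S:TFUL2 library, and 6.30 CPM or more in the other wild types. ACO3 (Solyc07g049550), an ACC oxidase of the last step of ethylene synthesis, went the other way, with 28.5 and 47.2 CPM in 35S:GinFT and 11.5 and 8.82 CPM in WT (1.90, SE 0.31, adjusted p = 0.0202). Without 35S:GinFT replicate 2 (adjusted p = 0.0712) or WT replicate 2 (0.0537) ACO3 was not called. WT of the overexpression experiment had 32.0 to 34.1 CPM of ACO3, inside the range of 35S:GinFT on the 24-library scale (25.9 to 44.1 CPM), and ACO3 was called against neither other wild type. The other 11 ethylene genes tested, among them the receptors ETR1 to ETR5, were not called.

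Gibberellin genes had 1 call among 10 tested, a lower one (3.69% of all genes tested were called lower). GA20ox2 (Solyc06g035530), a gibberellin 20-oxidase that makes precursors of the active hormone, had 1 and 2 reads (0.044 and 0.087 CPM) in 35S:GinFT, against 23 and 17 reads (1.04 and 0.570 CPM) in WT. The log2 fold change was -3.50 (SE 0.64, adjusted p = 0.0273), and 35S:SFT stood furthest off with 98 and 114 reads. The call was lost without 35S:GinFT replicate 1 (adjusted p = 0.160), without replicate 2 (0.0896) and without WT replicate 1 (0.0667). GA20ox1, which encodes the same kind of enzyme, had 24.8 and 30.6 CPM in 35S:GinFT and 17 and 7.38 CPM in WT and was not called. PROCERA, the DELLA repressor of gibberellin responses, had 246 and 221 CPM in 35S:GinFT and 255 and 197 CPM in WT, so the groups overlapped.

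Of 8 auxin genes tested, 1 was higher and 1 lower (2.55% and 3.69% of all genes tested were). PIN4 (Solyc05g008060), an auxin efflux carrier, had 223 and 231 CPM in 35S:GinFT and 162 and 154 CPM in WT (log2 fold change 0.53, SE 0.08, adjusted p = 0.0157). The call was lost without 35S:GinFT replicate 1 (adjusted p = 0.0815) and without replicate 2 (0.0718). On the 24-library scale PIN4 had 202 to 216 CPM in 35S:GinFT and 207 to 224 CPM in WT//WT grafts, where the direction turned. ARF5 (Solyc04g081240), an auxin response factor whose Arabidopsis counterpart is needed for vascular strands, had 43.6 and 53.0 CPM in 35S:GinFT, against 83.2 and 80.3 CPM in WT (-0.76, SE 0.11, adjusted p = 0.0135), a call lost without 35S:GinFT replicate 1 (adjusted p = 0.0636) and against WT//WT grafts (0.328). In the transgenic groups of the FUL experiment ARF5 was above WT, with 125 and 133 CPM in 35S:SFT and 148 and 151 CPM in 35S:TFUL2, so 35S:GinFT lay on the opposite side of WT. Among 4 KNOX genes, factors known for keeping meristem and stem tissue from differentiating, Tkn3 (Solyc05g005090) was called higher (2.55% of all genes tested were). It had 36.8 and 45.7 CPM in 35S:GinFT and 17 and 18.1 CPM in WT (1.23, SE 0.12, adjusted p = 0.00402), while the other 6 libraries of the FUL experiment, WT included, held between 15 and 18.6 CPM. Leaving out any of the 4 libraries in turn did not end the call of Tkn3.

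All 3 genes named for the small subunit of Rubisco, the carbon-fixing enzyme, were lower in 35S:GinFT stems (3.69% of all genes tested were). RBCS2A (Solyc03g034220) had 310 and 393 CPM in 35S:GinFT and 1074 and 688 CPM in WT (log2 fold change -1.32, SE 0.23, adjusted p = 0.0227). RBCS3B (Solyc02g085950) had 13.8 and 15.6 CPM against 64.2 and 32.0 CPM (-1.70, SE 0.30, adjusted p = 0.0236), and RBCS1 (Solyc02g063150) had 140 and 158 CPM against 251 and 212 CPM (-0.64, SE 0.12, adjusted p = 0.0307). None of the 3 was called without 35S:GinFT replicate 1 (adjusted p between 0.136 and 0.162) or without replicate 2 (between 0.0606 and 0.0870), and RBCS1 was not called without WT replicate 1 (0.0787). The groups did not overlap in any of the 3 genes, but the 2 WT libraries lay far apart from each other in RBCS2A and RBCS3B. These genes are near copies of one another, so the counts of single members are uncertain. In bulk stems fewer green cells and less RNA per cell cannot be told apart.

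Of 12 light genes, the CONSTANS-like gene CO1 (Solyc02g089540) was called (6.24% of all genes tested were). It had 6.59 and 4.96 CPM in 35S:GinFT, against 12 and 11.1 CPM in WT (-1.0, SE 0.22, adjusted p = 0.0438), a call lost whichever of the 4 libraries was left out. In Arabidopsis, CONSTANS turns on FT in long days. The blue light receptor CRY1b had 8.70 and 10.1 CPM in 35S:GinFT and 29.3 and 15.1 CPM in WT and was not called against WT (adjusted p = 0.0644). Against 35S:SFT, with 41.6 and 42.3 CPM, it was lower in 35S:GinFT (-2.15, SE 0.31, adjusted p = 0.00381). Of 4 chaperone genes, ERsHSP, a small heat-shock protein of the endoplasmic reticulum, was called lower (3.69% of all genes tested were). It had 5 and 10 reads in 35S:GinFT and 30 and 32 reads in WT (-1.87, SE 0.36, adjusted p = 0.0312). ERsHSP was not called without 35S:GinFT replicate 1 (adjusted p = 0.139), without WT replicate 1 (0.0815) or with the replicate block (0.0517). None of 7 sugar genes and none of 9 jasmonate genes was called (6.24% of all genes tested were). SUT1, the sucrose carrier that loads the phloem, had 280 and 354 CPM in 35S:GinFT and 216 and 262 CPM in WT, and the jasmonate factor MYC2 had 95.7 and 154 CPM against 191 and 159 CPM.

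**Figure D3:**
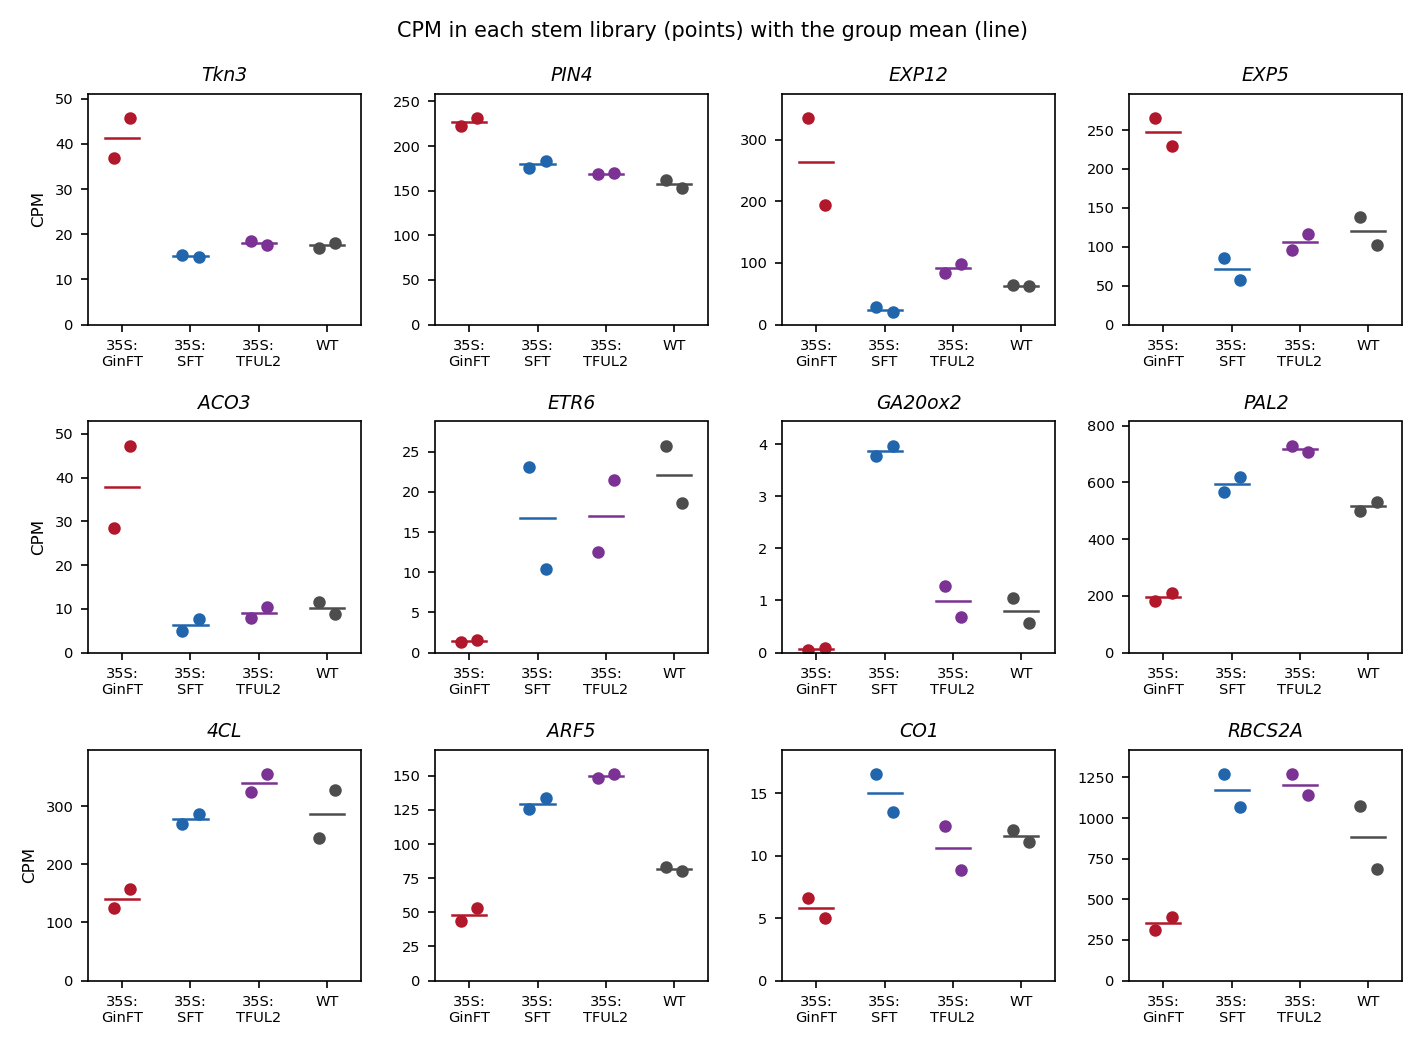
CPM of 12 named genes in each of the 8 libraries of the Ginkgo and FUL experiments; points are libraries (replicate 1 left, replicate 2 right), lines are group means of 2 libraries, and each panel has its own linear axis from 0. The panels show only genes called in one direction against each of WT, 35S:SFT and 35S:TFUL2. That both 35S:GinFT points lie outside the range of the other 6 points therefore follows from their choice. PAL2, for instance, is at 181 and 210 CPM in 35S:GinFT and at 500 CPM or more elsewhere.

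The largest rises by log2 fold change, among called genes with a mean of 2 or more on the log2 CPM scale and groups that did not overlap, had no name in the sources used here. Solyc08g076900 had 31.2 and 15.6 CPM in 35S:GinFT and 1.18 and 1.01 CPM in WT (4.42, SE 0.43, adjusted p = 0.00428). Solyc03g110990 had 26.0 and 19.5 CPM in 35S:GinFT and 1.40 and 1.98 CPM in WT (3.73, SE 0.29, adjusted p = 0.00215). Both genes were at 1.35 CPM or less in 35S:SFT and 35S:TFUL2 as well, but not in the other wild types. On the 24-library scale Solyc08g076900 had 14.6 to 28.3 CPM in 35S:GinFT, 38.9 to 49.6 CPM in WT of the overexpression experiment and 57.3 to 73.4 CPM in WT//WT grafts, so its direction turned (log2 fold change -1.04 and -1.61). Solyc03g110990 had 18.2 to 23.6 CPM in 35S:GinFT, 15.5 to 18 CPM in WT of the overexpression experiment and 12.9 to 15.9 CPM in WT//WT grafts, and was called against neither. After ETR6, the next largest falls were Solyc11g022590, with 1.98 and 1.61 CPM in 35S:GinFT and 7.96 and 38.0 CPM in WT (-3.69, SE 0.73, adjusted p = 0.0338), and, among genes that stood apart from all 3 other groups, Solyc02g087970, with 2.99 and 2.09 CPM in 35S:GinFT and 28.3 and 22.5 CPM in WT (-3.32, SE 0.20, adjusted p = 0.00193). Solyc11g022590 was not called without 35S:GinFT replicate 1 (adjusted p = 0.174) or replicate 2 (0.132), and Solyc02g087970 was called whichever library was left out.

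Genes read in one group and not in the other were few: 2 genes were at 1 CPM or more in both 35S:GinFT libraries and at 0 reads in both WT libraries, and 0 genes the other way round. Solyc12g077560 had 151 and 158 reads in 35S:GinFT stems and 0 reads in both WT stems, and it had 0 reads in the other 20 libraries of the table too. Against the limit of 3 reads per WT library it was at least 56.5-fold higher in 35S:GinFT. It was thus read in the 35S:GinFT libraries alone among the 24 of this table. Solyc07g008390 had 31 and 26 reads in 35S:GinFT and 0 in both WT libraries, at least 10.4-fold higher. Of the other 20 libraries 10 had no read of it, and the highest count was 71 reads in 35S:SFT//sp graft replicate 1.

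Because the Ginkgo experiment has no wild type of its own, 35S:GinFT was also set beside the 4 libraries of the other wild types, WT of the overexpression experiment and WT//WT grafts. Experiments differed widely. The first principal component of all 24 libraries, 44.3% of the variance, placed the FUL and Ginkgo libraries at 70.04 to 112 and all others at -84.2 to -1.74. HSP90, a chaperone, had 20.8 to 31.1 CPM in 35S:GinFT and 41.2 to 48.7 CPM in WT of the FUL experiment, but 666 to 677 CPM in WT of the overexpression experiment. Against WT of the overexpression experiment edgeR called 8323 genes in 35S:GinFT (3769 higher, 4554 lower), and against WT//WT grafts 10129 (4866 higher, 5263 lower). The part of experiment in these counts was not tested.

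The place of 35S:GinFT among all 6 wild type libraries differed from gene to gene. Of the 791 genes called lower, 528 (66.8%) were below all 6 wild type libraries in both 35S:GinFT libraries. Of the 547 called higher, 230 (42.0%) were above all 6. Called genes lie outside the WT pair of the FUL experiment by their choice, so this asks only about the other 4 libraries. Over all genes tested, 26.0% lay below and 26.0% above the 4 libraries of the other wild types. These shares use the same 35S:GinFT libraries as the calls and are a description. Of the 16 named genes called, 8 were called the same way against both other wild types: Tkn3 higher, and ETR6, GA20ox2, 4CL, CO1, RBCS1, RBCS2A and RBCS3B lower. EXP5, EXP12, PIN4 and SP turned round in direction against at least 1 of them. Calls against the other wild types were common over all genes, as counted above. In Tkn3, CO1, RBCS1, RBCS2A and RBCS3B, WT of the FUL experiment itself lay on the same side of both other wild types as 35S:GinFT did. RBCS2A had 649 to 1032 CPM in it and 2257 to 2329 CPM in WT of the overexpression experiment. In ETR6, GA20ox2 and 4CL it did not lie beyond both.

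**Figure D4:**
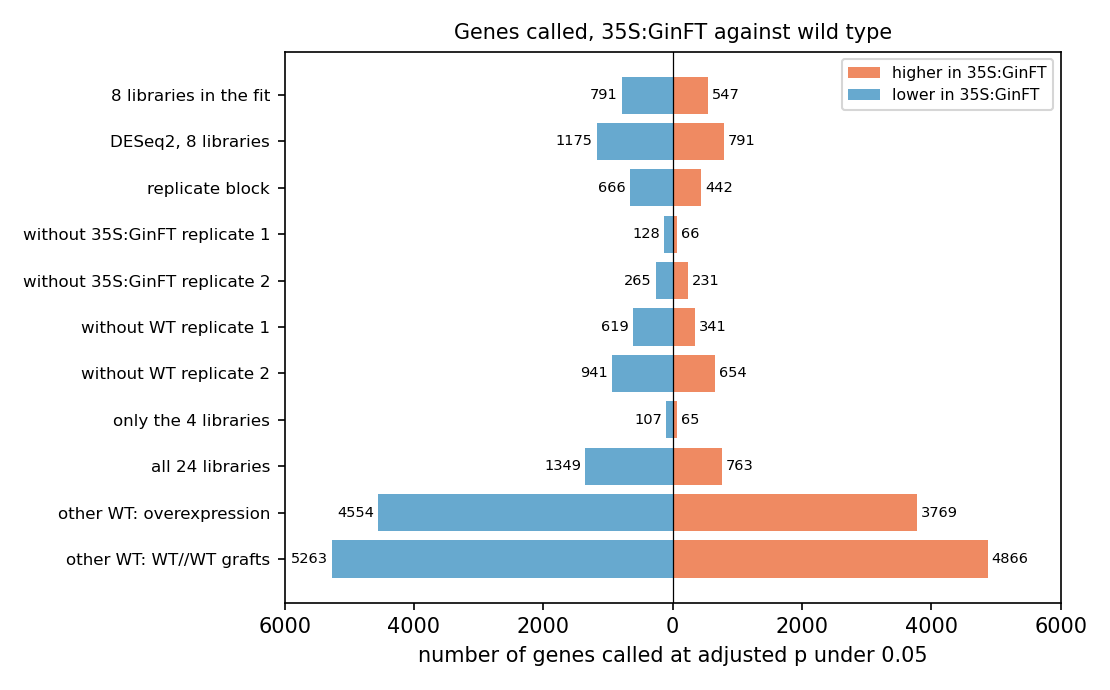
Number of genes called higher (right, orange) and lower (left, blue) in 35S:GinFT at adjusted p under 0.05, for different models, left-out libraries and wild types; all bars are edgeR except the one marked DESeq2. The count is 547 higher and 791 lower in the model of 8 libraries, 66 and 128 without 35S:GinFT replicate 1, and 4866 and 5263 against WT//WT grafts.

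The direct comparison with 35S:SFT asks where stems of the Ginkgo construct differed from stems of the tomato one. Against 35S:SFT, 6875 of 21458 genes were called in 35S:GinFT stems (32% of genes tested by edgeR), 3583 higher (16.7%) and 3292 lower (15.3%). Against 35S:TFUL2, 6966 genes were called (32.5%), 3527 higher (16.4%) and 3439 lower (16%). The replicates of 35S:SFT and of 35S:TFUL2 lay closer to each other (root mean square log2 difference 0.420 and 0.408) than those of WT (0.562). All groups shared one estimate of the spread in the fit, however. The distance from 35S:GinFT was 0.855 to 0.936 to 35S:SFT, 0.961 to 1.07 to 35S:TFUL2 and 0.604 to 0.759 to WT. The part of each in the number of calls was not tested. Without 35S:GinFT replicate 1 these counts were 2619 and 3084, and without 35S:SFT replicate 2 the count against 35S:SFT was 2155.

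Of the 91 named genes tested, 17 were higher and 24 lower in 35S:GinFT than in 35S:SFT. Over all genes tested, 16.7% were higher and 15.3% lower, so the genes below are examples only. EXP2 was among those higher and had 167 and 152 CPM in 35S:GinFT and 22.4 and 7.08 CPM in 35S:SFT (log2 fold change 3.44, SE 0.56, adjusted p = 0.00575). PIN3, another auxin efflux carrier, had 39.1 and 35.2 CPM against 18.3 and 11.5 CPM (1.32, SE 0.23, adjusted p = 0.00751). On the lower side GA20ox2, named above, was -5.78 (SE 0.57, adjusted p = 0.00136), and GA3ox2, the enzyme of the last step to active gibberellin, had 0.659 and 0.653 CPM in 35S:GinFT and 8.02 and 4.13 CPM in 35S:SFT (-3.20, SE 0.55, adjusted p = 0.00714). IAA27, a repressor of auxin responses, had 102 and 122 CPM in 35S:GinFT and 323 and 307 CPM in 35S:SFT (-1.49, SE 0.17, adjusted p = 0.00198).

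Genes in which 35S:GinFT stood apart from WT, 35S:SFT and 35S:TFUL2 alike, each called and in one direction, numbered 1060 (4.94% of genes tested), with 409 higher (1.91%) and 651 lower (3.03%). For these genes the construct and the Ginkgo experiment cannot be told apart. Tkn3, PIN4, ACO3, EXP5 and EXP12 were among the higher ones. ETR6, GA20ox2, PAL2, 4CL, ARF5, CO1, ERsHSP and the 3 RBCS genes were among the lower ones.

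A further comparison used gene lists from libraries outside the Ginkgo and FUL experiments, chosen after other results were known. In the overexpression experiment, stems with the genotype label pSFT-SFT were set against their own WT, and 833 of 21141 genes (3.94%) were called and 2-fold or more higher, and 802 (3.79%) lower. These lists owe nothing to the 35S:GinFT or FUL libraries. SFT itself was not higher in those stems on the scale common to the 24 libraries (1.09 to 1.30 CPM in pSFT-SFT and 2.29 to 2.93 CPM in WT), whereas FUL1 was, at 47.0 to 60.9 CPM in pSFT-SFT and 3.69 to 3.93 CPM in WT.

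Many genes raised in pSFT-SFT stems were lower in 35S:GinFT stems than in WT. Of the 759 raised genes that were tested, 171 were called lower in 35S:GinFT (22.5%, against 3.69% of all genes) and 11 higher (1.45%, against 2.55%). Their median log2 fold change was -0.45, against 0.01 over all genes, and 72.9% were below 0, against 48.1% of all genes. Both 35S:GinFT libraries showed it, each with a median of -0.43 relative to the WT mean, while the 35S:SFT libraries were at 0.12 and 0.17 and the 35S:TFUL2 libraries at 0.19 and 0.16. In 35S:SFT stems 45 of the 759 were called higher than WT (1.21% of all genes were) and 10 lower (1.42% of all genes were). In 35S:TFUL2 stems 161 were called higher than WT (21.2%, against 7.31% of all genes) and 121 lower (15.9%, against 6.33%). An excess of lower calls was thus not limited to 35S:GinFT. 35S:GinFT, 35S:SFT and 35S:TFUL2 share their WT libraries, so these sets of values are not independent of each other. Against 35S:SFT itself, 331 of the 759 were lower in 35S:GinFT (43.6%, against 15.3% of all genes) and 57 higher (7.51%, against 16.7%).

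The genes lowered in pSFT-SFT stems were called about as often in either direction in 35S:GinFT. Of 746 tested, 42 were higher in 35S:GinFT than in WT (5.63%, against 2.55% of all genes) and 36 lower (4.83%, against 3.69%), with a median of 0.04. In 35S:SFT, 10 were higher than WT (1.34%, against 1.21% of all genes) and 51 lower (6.84%, against 1.42%), with a median of -0.30. PAL2 and ACO3 are 2 named genes, chosen after their values were seen, that moved in opposite directions in the 2 experiments. PAL2 was higher in pSFT-SFT than in its WT (log2 fold change 1.0, SE 0.21, adjusted p = 0.0226) and lower in 35S:GinFT. ACO3 was lower in pSFT-SFT (-1.61, SE 0.18, adjusted p = 0.00336) and higher in 35S:GinFT.

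The count of raised genes lower in 35S:GinFT depended on which wild type stood beside 35S:GinFT. With WT//WT grafts in place of WT of the FUL experiment, 205 of 832 raised genes were lower in 35S:GinFT (24.6%), against 23.4% of all genes, and the median was -0.19 against 0.00. Without either 35S:GinFT library fewer raised genes were called lower against WT of the FUL experiment, and fewer of all genes were called too. The median of the raised genes was -0.52 in both cases. The raised genes had fewer reads than most, with a median of the mean log2 CPM of 1.97 against 3.98 over all genes, and the part of expression level was not tested.

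**Figure D5:**
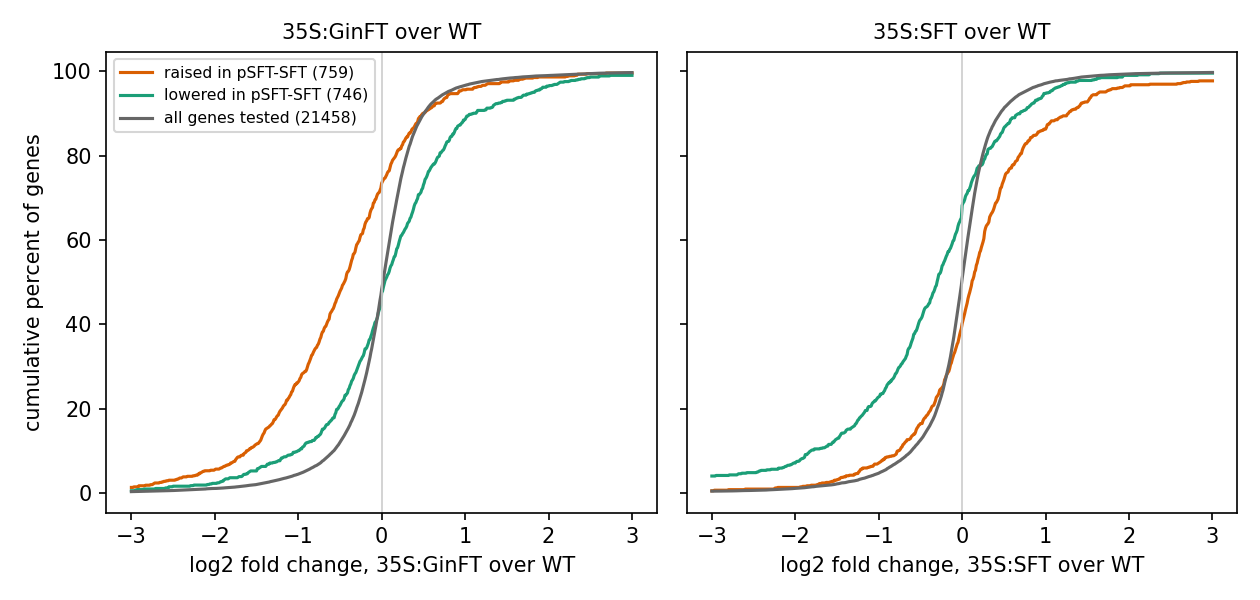
Cumulative percent of genes (y axis) against log2 fold change over WT (x axis) in 35S:GinFT stems (left) and 35S:SFT stems (right), for 759 genes raised and 746 lowered in pSFT-SFT stems and for all 21458 genes tested. In the left panel the raised genes lie left of all genes (median -0.45 against 0.01), and in the right panel slightly to the right (median 0.12).

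Genes called against WT were spread over the genome. Identifiers of this type carry the chromosome and run along it, and the share called ranged between 4.53% on chromosome 1 and 7.24% on chromosome 3. Over 206 runs of 100 neighbouring tested genes the share lay between 0% and 16%, with a median of 6%. The run with the highest share reached from Solyc09g011060 to Solyc09g014580 on chromosome 9. No run of 100 genes held more than 20% called genes, so no block of the genome stood out at this scale. No coordinates are given because the build of the files is not given in the sources used here.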

How the data were processed

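The deposited table, made by the authors, holds unnormalized read counts for 24 libraries (34728 lines). Per the labels' protocols, stem RNA was made into TruSeq v2 libraries read as single 50 bp reads. The submitters' processing notes name the tools HTSeq 0.6.1, Bowtie2 2.2.6, TopHat2 2.1.0, FastQC 0.11.5 and Trim Galore. The genome build, the settings and the strand option were not given in the sources used here. Since the kit does not mark strand, antisense and overlapping genes cannot be told apart. Near-identical genes may also have lost or shared reads at counting.

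The counts were analysed in R 4.3.3 with edgeR 4.0.16: TMM scaling, filterByExpr (minimum count 10, minimum total 15), one quasi-likelihood fit of the 4 groups (8 libraries, 4 residual degrees of freedom), and Benjamini-Hochberg adjustment over all 21458 genes, called at 0.05. Standard errors are the log2 fold change over the square root of F. The overexpression lists came from a fit of that experiment alone (21141 genes), and other wild types from a fit of all 24 libraries (22515 genes). DESeq2 1.42.0 was an alternative. The fit was also run on counts simulated from its own estimates, with independent libraries and changes only in well-read genes. That run cannot speak to differences between experiments, dependent replicates or genes with few reads. CPM are scaled by TMM; for genes on or off they use raw totals.

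Both libraries of each group differed beyond sampling noise (chi-square per degree of freedom 30.0 in 35S:GinFT and 38.5 in WT, over genes with 100 or more reads). The members, the gene lists and the rules were chosen with earlier results of these data known. The rule for named genes took 5 sets: the florigen and FRUITFULL families; the 2 largest rises and the 2 largest falls, where both groups were free of overlap and the mean log2 CPM was at least 2; the same among genes apart from all 3 groups; the 2 highest genes on or off in each direction; and the ends of the run with the highest share called. Other named genes came from the lists.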

Additional observations from a re-analysis of the deposited data

How the results depend on the processing

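With 2 libraries a group, the counts of calls moved with the libraries and the fit. The direction of the 22 genes named as called did not turn within these experiments. That could hardly have happened, because the groups did not overlap in any called gene, so it is no sign of stability. Against WT of the FUL experiment the 1338 calls became 172 with only the 4 libraries in the fit, 2112 with all 24 libraries, 620 with a 2-fold minimum and 216 at an adjusted p under 0.01, and ranged between 194 and 1595 with 1 library left out. With other wild types as reference they were 8323 (overexpression experiment) and 10129 (WT//WT grafts). RLE scaling (1347), DESeq2 (1966, 1261 of them among the edgeR calls), no filter (1337) and the replicate block (1108) stayed within 1.5 times. The replicate numbers were not taken to pair the samples: the correlation of replicate differences was -0.11 between 35S:GinFT and WT and ranged between -0.14 and 0.30 over the 6 pairs of groups, and not every pair was positive. Crossing the 35S:GinFT numbers in the block, chosen after seeing the data, gave 1194 calls. With 1 library left out, where the lone library is assumed to vary like the other groups, the calls ranged between 2155 and 4699 against 35S:SFT, between 3084 and 5081 against 35S:TFUL2, and between 170 and 1262 for genes apart from all 3 groups. Genes on or off numbered 4 at 0.5 CPM and 1 at 2 CPM, and the highest share of a run was 10.5% in runs of 200 genes.

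The alternatives for the genes raised in pSFT-SFT stems were chosen after seeing the data: 51 were lower in 35S:GinFT with only the 4 libraries in the fit, 260 with no 2-fold minimum for the list, and between 64 and 169 with 1 library left out. Of the 16 named genes called, Tkn3, EXP12 and PAL2 kept their call whichever of the 4 libraries was left out, and 13 lost it at least once, with adjusted p up to 0.206. Under the replicate block SP (adjusted p = 0.0594) and ERsHSP (0.0517) lost their calls; it changed no other call of the named genes. Directions turned only against other wild types. Against WT of the overexpression experiment the log2 fold change was 1.39 for SP, -0.72 for EXP5 and -1.04 for Solyc08g076900, and against WT//WT grafts 2.23 for SP, -0.30 for EXP5, -0.12 for EXP12, -0.044 for PIN4 and -1.61 for Solyc08g076900. The cause was not tested. For low genes such as SP and GA20ox2, depth limits what can be seen.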
